A study of Homo sapiens with 18 samples.

Results

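Distal CTCF regions that were acetylated only after VPA were selected in HEK293T cells from 69985 CTCF regions, obtained by merging CTCF peaks of 6 libraries wherever they shared 1 bp. They were chosen by 3 criteria applied to the CTCF summit, the position of highest signal. The summit lay more than 1 kb from every protein-coding transcription start site (TSS), it lay inside H3K27ac peaks of at least 2 of 3 VPA libraries, and it lay inside the H3K27ac peaks of 0 of 3 untreated libraries. These criteria left 1852 regions, called members below, which were 2.92% of the 63453 distal CTCF regions. An H3K27ac peak called only after VPA is thus the definition of the members and not a result. Acetylated here means inside a called peak. A summit outside the called peaks can still carry acetylation, which was not measured there. The reverse pattern, acetylation in at least 2 untreated lists and in no VPA list, was held by 55 distal regions (0.0867%).

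CTCF is a zinc finger protein that binds a long DNA motif and, together with the cohesin ring, anchors chromatin loops and the borders of contact domains. Acetylation of lysine 27 of histone H3 marks active promoters and enhancers, and it is removed by histone deacetylases. Valproic acid (VPA), an antiepileptic drug, inhibits several of these enzymes.

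ChIP-seq with antibodies against H3K27ac and CTCF had been performed on HEK293T cells, a transformed human embryonic kidney line that carries the large T antigen of a tumour virus. Untreated cells (CTRL) were compared with cells that had received 1 mM VPA for 1 day, with 3 libraries for each antibody and treatment, and 1 peak list was used for each of these 12 libraries. The 6 input libraries were not analysed here. All libraries came from the same line with no further genetic change named in the labels, and nothing stated that replicates were separate cultures, so p-values measure only the spread between these libraries, which may be technical. In bulk chromatin, acetylation in more cells and more acetylation per cell cannot be told apart. As a check of the line, H3K27ac peaks lay within 1 kb of the TSS of the HEK293T markers KRT18 and VIM in 6 of 6 lists, whereas the markers PAX2, EYA1 and LIN28B had a peak in 0 lists. The 6 markers of liver, blood, islet and endothelial cells (ALB, PTPRC, CD79A, INS, CDH5 and HBB) had a peak in 0 of 6 lists.

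Read totals are not part of peak lists, and the sequencing depth is therefore unknown. Background coverage, derived from the peak values as a measure of relative depth, was 3.51 to 3.95 fragments in the 12 libraries. Replicate 1 stood apart. Its CTCF lists held 39818 (CTRL) and 36469 (VPA) peaks, compared with 53458 to 58782 in replicates 2 and 3. The H3K27ac lists after VPA were longer (38441 to 40992 peaks) than the untreated ones (26299 to 29799 peaks), and with lists cut to equal lengths 810 members and 80 regions of the reverse pattern were found.

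To describe the sequence at these sites, the CTCF core motif was searched within 100 bp of each summit on both strands, with at most 1 mismatch among its 12 letters. It was found at 897 of 1852 members, and its centre lay a median of 14 bp from the CTCF summit, within 25 bp in 76.6% of these members. The sequences below are windows of 72 bp on the strand of the motif, read from the hg38 genome, with the motif match in capitals. Only members with a match are shown, and a match is not evidence of binding. CYREN and NCBP3 (the nearest protein-coding genes name the regions) were among the members with the strongest H3K27ac peaks. The windows are chr7:135169223-135169294 (minus strand) and chr17:3844080-3844151 (plus strand), both inside introns of these genes.
CYREN: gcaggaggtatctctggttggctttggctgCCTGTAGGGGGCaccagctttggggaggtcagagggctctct
NCBP3: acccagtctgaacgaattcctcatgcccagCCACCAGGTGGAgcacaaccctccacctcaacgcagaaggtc
MYO1F and PTGES2 were among the members with the strongest CTCF peaks and matched the motif without a mismatch. The windows are chr19:8580858-8580929 (minus strand), in an exon of the neighbouring gene ADAMTS10, and chr9:128117794-128117865 (minus strand), in an exon of a gene that is not protein-coding.
MYO1F: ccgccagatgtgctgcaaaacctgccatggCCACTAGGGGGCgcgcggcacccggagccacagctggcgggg
PTGES2: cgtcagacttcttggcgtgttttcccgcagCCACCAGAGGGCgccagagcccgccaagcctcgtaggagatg
HSPB1 and KDM4B came from the same group and carried 1 mismatch. The windows are chr7:76314453-76314524 (minus strand), between genes, and chr19:5048416-5048487 (plus strand), in an intron of KDM4B.
HSPB1: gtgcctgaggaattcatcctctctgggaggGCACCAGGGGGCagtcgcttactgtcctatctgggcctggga
KDM4B: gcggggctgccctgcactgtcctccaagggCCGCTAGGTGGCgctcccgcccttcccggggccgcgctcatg
UPK3BL1 and UPK3BL2 are shown because they are copies of each other and the windows around the motif were identical. The windows are chr7:102638550-102638621 (plus strand) and chr7:102539442-102539513 (plus strand), both in introns, and reads from these copies may be split or shared between them, so their values are uncertain.
UPK3BL1: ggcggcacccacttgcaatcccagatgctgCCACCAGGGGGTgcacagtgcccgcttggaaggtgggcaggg
UPK3BL2: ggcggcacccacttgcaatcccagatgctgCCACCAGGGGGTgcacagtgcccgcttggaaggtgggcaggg
P3H2, which encodes a collagen prolyl hydroxylase, lies in a region that the study examined, and its member is intronic at chr3:189961693-189961764 (plus strand).
P3H2: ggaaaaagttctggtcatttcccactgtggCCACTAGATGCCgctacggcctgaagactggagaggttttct

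The share of members with the core motif was 48.4% (95% Wilson interval 46.2 to 50.7%). Among the 51802 distal CTCF regions with H3K27ac in 0 of 6 lists, called unacetylated below, 38.3% (37.9 to 38.7%) carried the motif. Among the 3496 distal regions with H3K27ac in 6 of 6 lists, called constitutive below, 20.1% (18.8 to 21.5%) did. All 3 intervals were apart from each other, and they cover counting error only. In windows 2 kb away from the summits, the motif was present in 1.67% of members, 1.49% of unacetylated and 1.83% of constitutive regions. A match without mismatch was present in 17.2% of members, 10.0% of unacetylated and 4.15% of constitutive regions.

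The motif share among members differed with the number of CTCF lists that held the region. It was 10.2% to 13.3% of the members in 1, 2 or 3 lists, 19.9% and 30.6% of those in 4 and 5 lists, and 61.3% of the 1269 members in 6 lists. Of the unacetylated regions in 6 lists, 55.6% carried the motif, and of the constitutive regions in 6 lists 30.3%. To compare regions of like CTCF strength, distal regions in 6 CTCF lists were divided into quintiles by their mean fold enrichment, the signal at the summit over the local background as given by the authors' peak caller. In the strongest quintile, the motif was present at 75.3% of members and 74.4% of unacetylated regions, in the fourth at 67.6% and 65.9%, and in the third at 63.6% and 59.7%. In the second quintile it was present at 47.3% of members and 48.3% of unacetylated regions, and in the weakest at 20.2% and 35.6%, so that the order was the other way in both. The difference in motif share between members and unacetylated regions therefore moved with CTCF strength, and the part of strength in it was not tested. Constitutive regions had the lowest motif share in each quintile, from 11.6% in the weakest to 59.1% in the strongest.

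**Figure D1:**
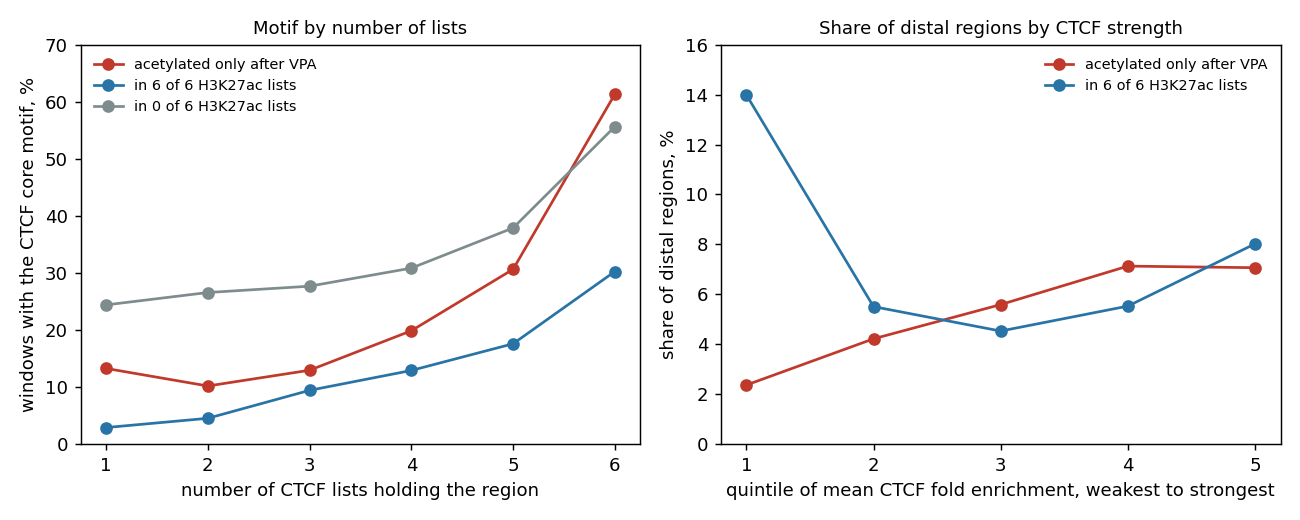
Left, share of regions with the CTCF core motif within 100 bp of the summit (%) by the number of CTCF lists holding the region, for 3 classes of distal CTCF regions. Right, share (%) of the distal regions in 6 CTCF lists that were acetylated only after VPA or were in 6 of 6 H3K27ac lists, in quintiles of mean CTCF fold enrichment. The motif share of members reached 61.3% in 6 lists, and the share of members was 2.37% in the weakest and 7.07% in the strongest quintile.

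CTCF was present at most members in untreated cells, as it was at most distal regions. A CTCF peak was found in at least 1 untreated list at 1776 members (95.9%, compared with 92.5% of all distal regions) and in at least 2 untreated lists at 1671 members (90.2%, compared with 77.6%). In the CTRL lists 1, 2 and 3, 78.4%, 92.1% and 91.1% of members had a CTCF peak, and in the VPA lists 73.9%, 91.6% and 91.0%. Replicate 1 was the lowest in both groups, and the groups overlapped. A CTCF peak in 3 of 3 VPA and 0 of 3 CTRL lists was found at 0 members (0.186% of all CTCF regions), and the reverse at 2 members (0.326% of all CTCF regions).

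Members were more often and more strongly occupied by CTCF than the unacetylated regions of the same list. In all 6 lists a peak was found at 68.5% of members, 51.7% of constitutive and 32.7% of unacetylated regions. The share with a peak was higher in members than in unacetylated regions by a mean of 18.7 percentage points (range over lists 10.5 to 29.5) and than in constitutive regions by 11.4 points (6.88 to 17.6). Both differences were in the same direction in 6 of 6 lists (exact sign-exchange test over lists, two-sided, p = 0.03125, the smallest possible, adjusted p = 0.0417 over 8 comparisons). This comparison of classes was chosen after the values had been seen. The 6 lists measured the same regions in the same cell line. The p of this test, here and below, therefore covers only agreement between these lists.

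The median CTCF fold enrichment of the 1269 members in 6 lists was 25.2, 57.9 and 55.8 in CTRL lists 1, 2 and 3, and 13.7, 63.9 and 58.4 in the VPA lists. Unacetylated regions reached 13.3, 44.5 and 42.0 in CTRL and 11.5, 40.6 and 42.3 in VPA, and constitutive regions 14.0, 29.8 and 28.3 in CTRL and 12.7, 29.5 and 27.5 in VPA. Members were above these 2 classes in every list, by a mean of 0.51 on the log2 scale over unacetylated regions (0.25 to 0.92 over lists) and of 0.85 over constitutive regions (0.11 to 1.11, each 6 of 6 lists, exact sign-exchange test, p = 0.03125, adjusted p = 0.0417). Strong CTCF was not particular to the members. Of the 6248 other distal regions, with H3K27ac in part of the lists, 4027 were in 6 CTCF lists. Their medians were 31.8, 60.2 and 56.2 in CTRL and 18.4, 64.8 and 58.6 in VPA, above the members in each list. Of the 55 regions of the reverse pattern, 28 were in 6 CTCF lists. These reached 47.5, 62.1 and 63.8 in CTRL and 38.9, 66.2 and 65.1 in VPA, above the members too. In recovered fragments over the summit, the medians of members were 272, 662 and 599 in CTRL and 110, 622 and 574 in VPA. Constitutive regions were above members by this measure in the replicate 1 lists, at 435 and 377.5 fragments, and below them in the other lists. The median rank of members within their list exceeded that of unacetylated regions in 6 of 6 lists and that of constitutive regions in 4 of 6 lists (exact p = 0.25, adjusted p = 0.286).

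**Figure D2:**
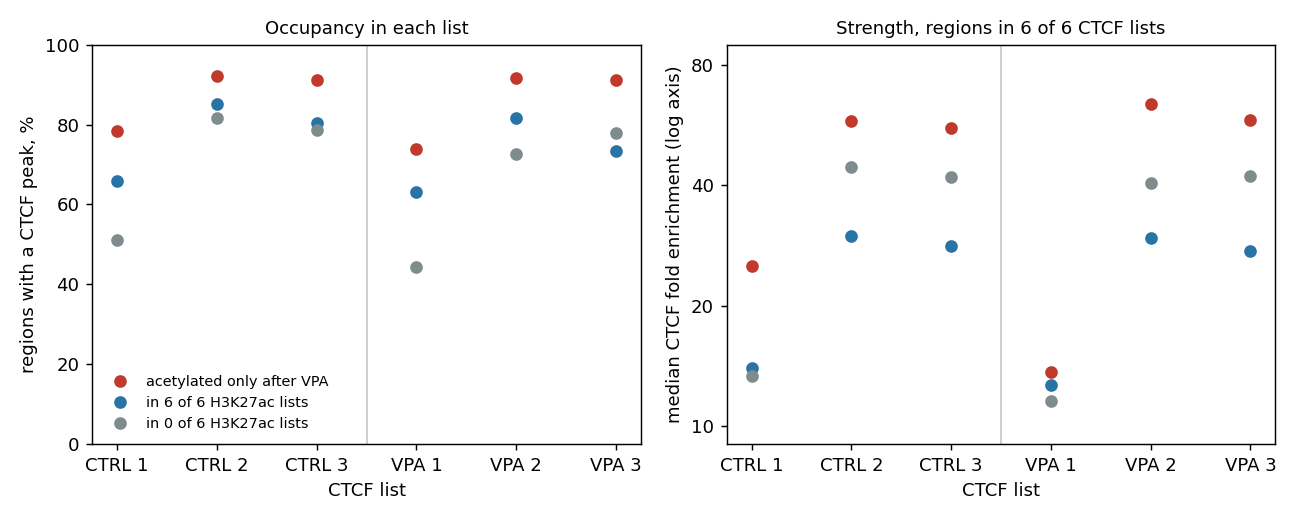
Left, share of regions with a CTCF peak (%) in each of the 6 CTCF lists. Right, median CTCF fold enrichment (log axis) of regions in 6 of 6 CTCF lists. Each point is 1 list and 1 class of distal CTCF regions, and the grey line separates untreated from VPA lists. Members lie above both other classes in each list, and replicate 1 lies below replicates 2 and 3.

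The question for CTCF was whether its signal at the members differed between VPA and CTRL, and no difference larger than the spread between libraries was found. The mean share of members with a peak was 87.2 ± 7.64% in untreated and 85.5 ± 10.0% in VPA lists (mean ± SD, n = 3, exact permutation test, two-sided, p = 0.6). The mean of the median rank was 79.3 ± 9.08 in CTRL and 75.7 ± 13.5 in VPA (percentile within the list, n = 3, exact permutation p = 0.5). Relative to unacetylated regions of the same list, the log2 fold enrichment of members was 0.57 ± 0.30 in CTRL and 0.46 ± 0.20 in VPA (n = 3, exact permutation p = 0.7). This relative value was lower in VPA by 0.67 in replicate 1, and higher in VPA by 0.27 and 0.06 in replicates 2 and 3. CTCF peaks at members were 901 ± 80.5 bp wide in CTRL, as the mean of the medians, and 862 ± 223 bp wide in VPA (n = 3, exact permutation p = 0.9). Adjusted over these 4 comparisons each p was 0.9, and 3 against 3 libraries cannot give an exact p below 0.1. Replicate 1 had the lowest share, rank and width in both groups, and this is part of the spread in these tests. Between same-numbered libraries the share was lower in VPA each time (−4.48, −0.540 and −0.054 points), as was the rank.

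CTCF was also compared region by region with limma on the log2 fold enrichment of the 27794 CTCF regions in 6 lists. At an adjusted p threshold of 0.05, 0 regions were higher in VPA (0.0%) and 0 were lower (0.0%), and 0 of 1269 members were called. At an unadjusted p under 0.05, limma gave 129 regions (0.464%) and 2 members (0.158%), both lower in VPA. This direction depended on the setting. Without centring, 18 members were higher and 2 lower (1.58% of members, compared with 0.917% of all regions). With replicates 2 and 3 only, 66 were higher and 9 lower (5.91% of members, compared with 4.75% of all regions). The median log2 change was 0.05 in members, 0.04 in unacetylated and 0.21 in constitutive regions, with a median standard error of 0.63 in members. The 0.464% of regions under an unadjusted p of 0.05 is far below what that threshold gives without any change. The test was thus conservative, and with this standard error 0 calls do not show that CTCF was unchanged. The fold enrichment of all VPA lists was above that of all CTRL lists at 21 members (1.65%, compared with 1.33% of all regions tested) and below it at 17 members (1.34%, compared with 1.91%). In these last 2 counts the shares of members were near those of all regions. At an unadjusted p under 0.05 they were below in the main setting and above without centring. The split by direction at that threshold was counted for members only, so it cannot be set against all regions.

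**Figure D3:**
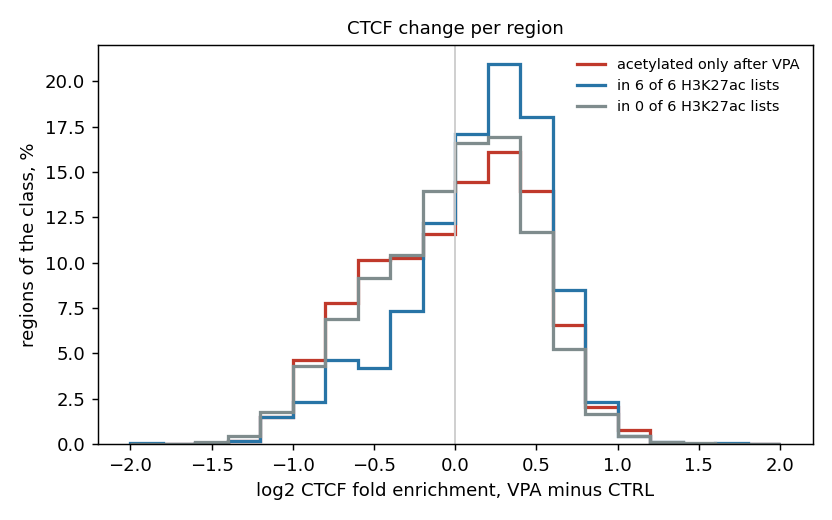
Distribution of the log2 change in CTCF fold enrichment, VPA minus CTRL, after centring each list on its median, as the percentage of regions of each class in bins of 0.2. The curve of the members (median 0.05) overlies that of the unacetylated regions (median 0.04), and that of the constitutive regions (median 0.21) lies to the right.

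The members with the smallest p in each direction did not pass the adjusted threshold. The fold enrichment of the member beside IGFN1, chr1:201184655-201185658 between genes, was 48.5, 30.6 and 25.2 in CTRL lists 1, 2 and 3, and 4.12, 20.4 and 14.9 in the VPA lists. All VPA lists were below all CTRL lists, with the lowest value in VPA replicate 1 (log2 change −1.52, standard error 0.62, limma adjusted p = 1.00). Fragments over the CTCF summit of the IGFN1 member were 323, 300 and 250 in CTRL and 34, 250 and 172 in VPA. The member in an intron of ZFHX2, a zinc finger homeobox gene, came next, with a log2 change of −1.36 (THTPA is the nearest TSS). Its fold enrichments were 127.9, 60.0 and 51.6 in CTRL and 8.96, 47.9 and 42.4 in VPA, with VPA replicate 1 far the lowest. In fragments the groups overlapped there, at 599, 545 and 454 in CTRL and 50, 488 and 473 in VPA. In the other direction, the member in an intron of RAB7A, a GTPase of late endosomes, had fold enrichments of 5.16, 32.7 and 35.1 in CTRL and 11.2, 75.5 and 58.2 in VPA (ACAD9 is the nearest TSS). By fold enrichment, VPA replicates 2 and 3 were above all CTRL lists, whereas VPA replicate 1 was above CTRL replicate 1 only (log2 change 1.13, standard error 0.61). In fragments over the CTCF summit the groups overlapped, at 31, 491 and 431 in CTRL and 56, 482 and 452 in VPA. KCNC1, a voltage-gated potassium channel gene, had a member in an exon with fold enrichments of 4.25, 6.78 and 7.92 in CTRL and 10.6, 14.3 and 11.8 in VPA. By fold enrichment, all VPA lists were above all CTRL lists there (log2 change 1.10, standard error 0.65, limma unadjusted p = 0.0873). In fragments the groups overlapped, at 214, 112 and 86 in CTRL and 395, 138 and 106 in VPA.

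The gained H3K27ac peaks over the members were weaker than the peaks over constitutive regions. They are described without a test because they selected the members. Their median rank was 39.2, 40.1 and 37.0 in VPA lists 1, 2 and 3 (percentile within the list). Peaks over constitutive regions had median ranks of 79.1, 81.6 and 81.2. In VPA lists 1, 2 and 3, 826, 1645 and 1687 members lay in an H3K27ac peak, with medians of 30, 36 and 34 fragments over the H3K27ac summit. Constitutive regions reached medians of 273, 221 and 212.5 fragments in the same lists, and the lowest peak called in these lists held 11 fragments. The H3K27ac peaks at members were also narrower, with median widths of 774.5, 922 and 824 bp compared with 2030.5, 2741 and 2562 bp at constitutive regions. Their summits lay a median of 210, 239 and 213 bp from the CTCF summit, compared with 323.5, 346.5 and 338.5 bp at constitutive regions.

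Most members rested on replicates 2 and 3. Of the members, 1026 (55.4%) were acetylated in VPA replicates 2 and 3 only, 454 (24.5%) in all 3 VPA replicates, 207 (11.2%) in replicates 1 and 3, and 165 (8.91%) in replicates 1 and 2. Just outside the criteria lay 2550 distal regions in 1 of 3 VPA lists and 0 CTRL lists, whose VPA peaks had a median of 25 fragments. A further 1017 regions were in at least 2 VPA lists and in 1 CTRL list, with a median of 43 fragments. Members in 2 VPA lists had a median of 32 fragments and those in 3 lists one of 37. The motif was present at 48.1% and 47.1% of these sets just outside, and CTCF was found in 6 lists at 65.0% and 66.6% of them. At the distance threshold, the nearest member lay 1004 bp from the TSS of TMTC2, and 100 regions with the same acetylation pattern lay within 1 kb of a TSS, the farthest of them 994 bp from that of TBC1D10A.

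Members fell into 2 kinds by their acetylated surroundings. At 1169 members (63.1%) the merged H3K27ac region held no untreated peak, and these are called stand-alone members. The nearest untreated H3K27ac peak was a median of 12.1 kb away, and the median H3K27ac summit held 27, 31 and 30 fragments in VPA lists 1, 2 and 3. At the other 683 members (36.9%) the merged region also held an untreated peak, and the CTCF summit lay a median of 126 bp outside it. At 676 of these margin members, a VPA peak over the CTCF summit overlapped an untreated peak directly, so the member lay beside chromatin that was acetylated in untreated cells too. Whether the summit lay at an outer edge or between untreated peaks was not determined. Margin members had stronger H3K27ac summits than stand-alone members (40, 54 and 49 fragments). These summits lay farther from the CTCF summit (medians of 328, 455.5 and 405 bp) than those of stand-alone members (167, 177 and 166 bp). The median rank of the H3K27ac peaks in VPA lists 1, 2 and 3 was 50.3, 55.0 and 54.0 at margin members. At stand-alone members it was 33.3, 32.4 and 29.8.

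**Figure D4:**
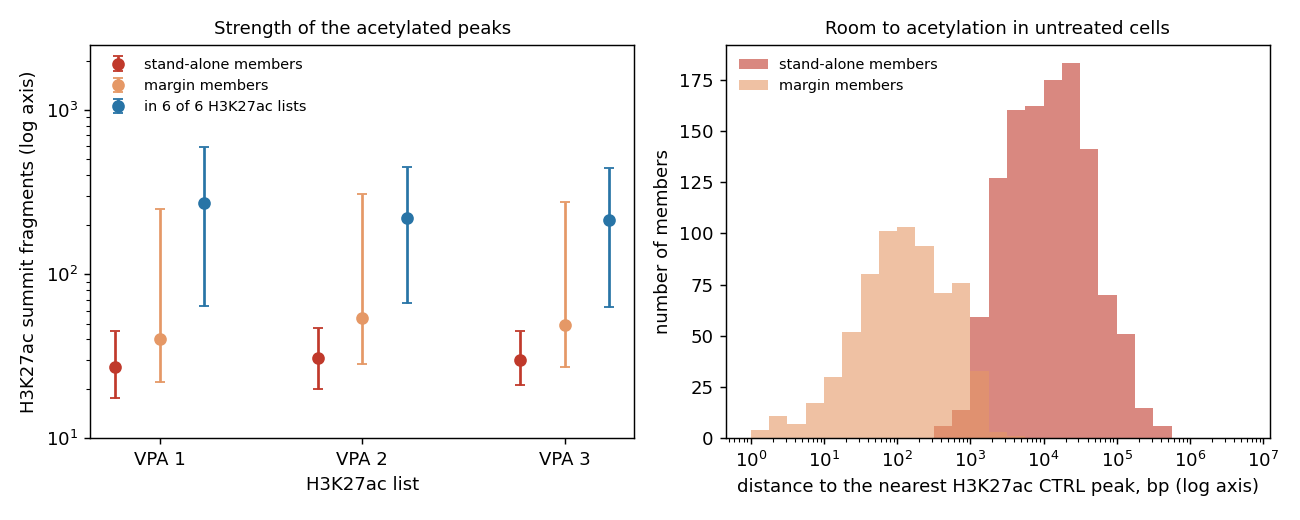
Left, H3K27ac summit fragments (log axis) in the 3 VPA lists at stand-alone members, margin members and distal regions in 6 of 6 H3K27ac lists. Points are medians, and bars run from the 10th to the 90th percentile over regions. Right, number of members by the distance of the CTCF summit to the nearest H3K27ac peak of any untreated list (bp, log axis). Stand-alone members lie a median of 12.1 kb and margin members a median of 126 bp from untreated peaks.

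Stand-alone members carried CTCF and its motif more often than margin members. The motif was present at 51.2% of stand-alone members (48.3 to 54.0%) and 43.8% of margin members (40.1 to 47.5%), and CTCF was found in 6 lists at 72.5% and 61.8%. Among members in 6 lists the motif shares were closer, at 62.6% and 58.8%. The median fold enrichment of the 847 stand-alone members in 6 lists was 27.7, 59.8 and 57.8 in CTRL and 14.3, 68.0 and 60.6 in VPA. The 422 margin members in 6 lists reached 20.7, 53.5 and 49.1 in CTRL and 12.5, 55.5 and 53.4 in VPA. They were below the stand-alone members in each list. The 1852 members lay in 1847 merged H3K27ac regions, so that 5 regions held 2 members each, and these 5 regions were beside EFCAB2, NTMT1, KCNIP2, TUT1 and GGT6.

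Members were found more often among strong than among weak CTCF sites. Of the distal regions in 6 CTCF lists, 2.37% were members in the weakest quintile of mean fold enrichment (2.48 to 13.8), and 4.22%, 5.59%, 7.13% and 7.07% in the following quintiles. The strongest quintile reached from a fold enrichment of 58.4 to 210.05. There, 340 members were found, of which 230 (67.6%) had no H3K27ac peak in VPA replicate 1, compared with 59.6%, 52.2%, 50.6% and 48.4% of members in the quintiles from the weakest to the fourth. Replicate 1 also differed in the share of all regions in this quintile that lay in an H3K27ac peak, which was 10.2%, 24.7% and 22.3% in CTRL lists 1, 2 and 3 and 17.3%, 33.6% and 37.6% in VPA lists 1, 2 and 3. The part of this library difference in the share of members was not tested.

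The 10 members with the strongest H3K27ac peaks, ranked within each VPA list, were all margin members. The highest was in an intron of CYREN (chr7:135168776-135169761), a regulator of DNA end joining, 1.56 kb from the TSS. Its H3K27ac summits held 836, 567 and 582 fragments in VPA lists 1, 2 and 3, and its CTCF summit lay 53 bp from an untreated H3K27ac peak. CTCF fragments there were 842, 546 and 467 in CTRL and 142, 678 and 507 in VPA, with the lowest count in VPA replicate 1 and the groups overlapping. The member in an intron of RXRB, the retinoid X receptor beta, lay beside the zinc transporter gene SLC39A7 at chr6:33197155-33198165, with 496, 430 and 397 H3K27ac fragments. Its CTCF fragments were 553, 662 and 600 in CTRL and 85, 633 and 581 in VPA, again with VPA replicate 1 apart from the rest. The others were beside PHACTR4, MAP1LC3B2, PSMB4 (a proteasome subunit), TEX35, TSPYL4, NCBP3 (a cap-binding protein), FAHD2A and FOCAD, and those at TEX35 and TSPYL4 had a CTCF peak in 1 of 6 lists.

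The 10 members with the strongest CTCF peaks were all acetylated in VPA replicates 2 and 3 and not in replicate 1, and 7 of them were stand-alone members. Beside PTGES2, a prostaglandin synthase gene, the region chr9:128116941-128119171 had CTCF fold enrichments of 173.7, 167.5 and 137.3 in CTRL and 143.9, 206.0 and 172.6 in VPA. The groups overlapped, and the H3K27ac summits held 32 and 44 fragments in VPA lists 2 and 3. The member in an exon of ADAMTS10, a secreted metalloproteinase gene beside MYO1F (chr19:8578182-8582929), reached 106.9, 128.9 and 104.6 in CTRL and 150.4, 219.3 and 183.8 in VPA. By fold enrichment, all VPA lists were above all CTRL lists there, but the change did not pass the test (log2 change 0.81, standard error 0.99, limma unadjusted p = 0.412). In CTCF fragments the groups overlapped, at 4010, 2007 and 1785 in CTRL and 5746, 2062 and 1730 in VPA. Beside HSPB1, which encodes a small heat shock protein, the region chr7:76313965-76315814 reached 98.4, 129.3 and 104.8 in CTRL and 137.5, 196.0 and 149.3 in VPA, with 54 and 67 H3K27ac fragments in VPA lists 2 and 3. The member in an intron of KDM4B, a histone demethylase gene, lay 79.3 kb from the TSS and had 39 and 49 H3K27ac fragments in these lists. Others of this group were beside UPK3BL1, UPK3BL2, PPARA (a nuclear receptor for fatty acids), CMTM6 and SERBP1.

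Among the genes P3H2, CLDN1, SYNE1 and SP110, 1 member was found, in an intron of P3H2 (chr3:189961114-189962307), 160.7 kb from its TSS. It was a stand-alone member with 29 and 22 H3K27ac fragments in VPA lists 2 and 3 and no peak in VPA list 1, and the nearest untreated H3K27ac peak was 158.5 kb away. Its CTCF fold enrichment was 9.24, 92.8 and 92.4 in CTRL and 12.8, 14.3 and 81.7 in VPA. VPA replicate 2 was low while VPA replicate 3 was near CTRL replicates 2 and 3, and the groups overlapped (log2 change −0.69, standard error 0.62, limma unadjusted p = 0.265).

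Members lay nearer to genes than unacetylated CTCF regions. The median distance to the nearest protein-coding TSS was 19.8 kb (quartiles 6.92 and 50.5 kb) in members, 14.6 kb in constitutive and 56.0 kb in unacetylated regions. Of the members, 46.4% lay in introns of protein-coding genes, 32.2% between genes, 9.61% in exons of protein-coding genes, 9.29% in introns of other genes and 2.54% in exons of other genes. Unacetylated regions lay in introns of protein-coding genes in 41.8% and between genes in 36.0% of cases. The start of any transcript of a protein-coding gene lay within 1 kb of 168 members (9.07%), compared with 38.2% of constitutive and 4.84% of unacetylated regions. An lncRNA TSS lay within 1 kb of 73 members (3.94%), compared with 19.5% and 2.01%.

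In base composition, members were closer to unacetylated than to constitutive regions. The median GC content of the windows reaching 100 bp to either side of the summit was 52.7% in members, 50.7% in unacetylated and 63.2% in constitutive regions, and a window held a mean of 5.08, 3.61 and 14.0 CpG dinucleotides, respectively. Other motifs were searched on both strands without mismatch. GGGCGG, bound by Sp and KLF factors, was present in 14.4% of members, compared with 7.59% of unacetylated, 39.0% of constitutive and 10.99% of all distal windows. Like values were found for the AP-1 motif TGANTCA (5.72% of members, 5.28% of all distal windows), the TEAD motif GGAATG (11.6% and 10.97%) and the GATA motif AGATAA (7.34% and 6.93%). The homeobox motif TAATTA was present in 2.48% of members and 3.00% of all distal windows, the forkhead motif TGTTTAC in 1.94% and 2.57%, the ETS motif CCGGAAG in 1.78% and 1.47%, and the CRE motif TGACGTCA in 0.162% and 0.132%. These motifs can overlap each other and the CTCF motif, and a match is not evidence of binding.

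The members were spread over 22 autosomes, the only chromosomes in the lists. They made up 6.83% of the distal CTCF regions of chromosome 19 (154 of 2256), 5.17% on chromosome 17 and 4.86% on chromosome 22, and the lowest share was 0.994% on chromosome 18 (14 of 1409). The median distance from a member to the next was 198.7 kb, and 122 members (6.59%) had another within 10 kb. The members were nearest to 1661 protein-coding genes, of which 1494 had 1 member, 144 had 2, 22 had 3 and 1 had 4. The gene with 4 was TPTE, which was the nearest gene of 110 distal CTCF regions, and KCNIP2, a subunit of potassium channels, had 3 members among 4 distal CTCF regions (both named after their values were seen).

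Gene families beside the members were counted by the symbol of the nearest gene and set beside all distal CTCF regions, without a test. Ion channel genes were nearest to 28 members (1.51%, compared with 1.55% of all distal regions), among them the calcium channel genes CACNA1A and CACNA1D and the potassium channel genes KCNC1 and KCNMA1. Axon guidance genes were nearest to 22 members (1.19% and 0.878%), including the ephrin receptor genes EPHA2 and EPHA4 and the ligand genes SLIT1, SLIT2 and NTN1. Collagen genes were nearest to 9 members (0.486% and 0.370%), cadherin genes to 11 (0.594% and 0.782%), and adhesion and synapse scaffold genes to 3 (0.162% and 0.459%). Zinc finger genes were nearest to 21 members (1.13% and 1.85%) and developmental factor genes, such as SOX2, GATA3 and HOXA13, to 18 (0.972% and 1.58%). The last count was made by symbol prefix and includes TBXA2R, a thromboxane receptor gene that is not a developmental factor.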

How the data were processed

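Peak lists of 12 ChIP libraries were used, in 4 groups of 3 taken from the sample labels. The authors aligned reads to hg38 with Bowtie2 and called peaks per library with MACS3 (3.0.0a7 per the labels). The deposited lists give each peak's interval, summit, fold enrichment (a ratio over local background), −log10 p-value, −log10 q-value and a score derived from the q-value, as computed by the authors' peak caller. Whether input libraries entered peak calling was not given in the sources used here. All values are single-library values, and local background can change the fold enrichment.

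From the fold enrichment and −log10 p-value, the fragments over each summit were recovered (whole within 0.05 fragments in at least 99.9975% of peaks per list). The lowest local background of a list gave its background coverage. Distances and annotation used GENCODE release 44 (19111 protein-coding TSS on chromosomes 1 to 22), and windows were read from hg38. Tests were exact permutations over libraries and limma 3.58.1 (R 4.3.3) with a mean-variance trend, each list centred on its median, and Benjamini-Hochberg adjustment. Python 3.11.15, pandas 2.3.3, numpy 2.4.6, scipy 1.17.1 and matplotlib 3.10.9 were used.

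The members, gene lists and motifs were chosen with earlier results of these data known. Regions named were the 10 members with the highest mean H3K27ac rank over VPA lists among those in 3 of 3 (1 per H3K27ac region), the 10 with the highest mean CTCF rank, the 5 with the smallest limma p in each direction, the 5 H3K27ac regions holding most members, and members within P3H2, CLDN1, SYNE1 or SP110. Alternatives covered peak thresholds, list lengths, overlap, TSS definition, left-out libraries, the replicate block, centring and regions tested. A marker gene and a member chosen by this rule are not reported here.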

Additional observations from a re-analysis of the deposited data

How the results depend on the processing

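The number of members depended on the lists required. It was 454 when 3 of 3 VPA lists were required, 1186 with no untreated H3K27ac peak within 1 kb, 810 with equal list lengths, and 619 to 2285 when 1 H3K27ac library was left out (661 without VPA replicate 2 and 619 without VPA replicate 3). It stayed between 1668 and 1855 under stricter peak thresholds, transcript starts and merging at 100 bp. The motif share was 17.2% without mismatch and 43.8% within 50 bp.

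The VPA minus CTRL differences in CTCF at members did not keep their direction when single CTCF libraries were left out. Between same-numbered libraries, the share was lower in VPA each time, by −4.48, −0.540 and −0.054 points in replicates 1, 2 and 3. The rank was lower each time too (−8.67, −1.77 and −0.359). The relative fold enrichment and the width were lower in VPA in replicate 1 and higher in replicates 2 and 3. Leaving out 1 CTCF library gave −6.09 to 4.10 percentage points for the share with a peak, −8.84 to 4.18 for the rank, −0.21 to 0.06 for the relative log2 fold enrichment and −123.8 to 86.7 bp for the width. VPA replicate 1 turned the share (4.10), the rank (4.18) and the width (86.7 bp) when it was left out, CTRL replicates 2 and 3 turned the share (0.765 and 0.252), and CTRL replicate 1 turned the relative fold enrichment (0.0603). With equal list lengths the share differed by 0.453 points. No exact p fell below 0.4 in these settings.

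With a replicate block the exact p was 0.25 for the share and rank, the smallest possible, and 1.0 for the other measures. Deviations of same-numbered libraries correlated at 0.34, −0.05 and 0.48, and those of differently numbered ones at −0.49 to 0.41. The numbers were not taken as pairs in the main tests. A shift shared by the replicate 1 libraries therefore stayed in the spread of those tests. limma with the block called 0 members and gave 27 at an unadjusted p under 0.05 (25 higher and 2 lower in VPA), or 2.13% of members compared with 2.05% of all regions. It called 0 members in every other setting run, including summit fragments over background coverage (0 members at an unadjusted p under 0.05) and replicates 2 and 3 only (75 members, or 5.91%, compared with 4.75% of all regions), both chosen after seeing the data. Unknown depth and 3 libraries per group limit these comparisons.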

Other observations

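H3K27ac regions with the same treatment pattern were also counted without regard to CTCF. Of 7259 merged H3K27ac regions with a midpoint over 1 kb from a protein-coding TSS, found in 2 or 3 VPA lists and 0 CTRL lists, 1768 (24.4%) held a CTCF summit. Of 412 regions found in 2 or 3 CTRL lists and 0 VPA lists, 36 (8.74%) did, and of 10623 regions in 6 of 6 lists, 4612 (43.4%) did. Median widths were 810, 598 and 2282 bp, so that the regions compared differed in length, and the part of length in these shares was not tested.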
